A study of Mus musculus with 4 samples.

Results

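The genes of cholesterol synthesis and sterol regulation were examined in embryonic mouse kidney as 28 genes, of which 26 had a probe set that the array's annotation assigns to that gene alone, among 18193 gene symbols with such a probe set. Acat2, the thiolase at the entry to the route, and Nr1h2, which encodes the liver X receptor beta, had none and are not described further. The genes were chosen by their role, with earlier results of these data known. For each, the probe set with the highest mean log2 signal over all pools stood for the gene, and its other probe sets served as a check. All 26 passed the filter on dim probe sets, and each of their signals lay between 126.2 and 5965, in arbitrary units on a linear scale.

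The series compared kidneys of C57BL/6 embryos at embryonic day 15 whose dams ate an iron-deficient synthetic diet, with about 2 to 6 ppm iron, or a control diet with 220 ppm iron. Dams were 8 weeks old at the start, were fed for 3 weeks before gestation and stayed on their diet through mating and pregnancy, although the labels also say that mating followed after a month. There were 2 pools of 16 kidneys for each diet, and 1 Affymetrix Mouse Genome array for each pool. Maternal iron was the treatment, and the labels state no iron measurement in the embryos. Whether separate litters filled the pools is not stated, so a p-value here reflects pool-to-pool spread that could be purely technical.

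Cholesterol is built from acetyl-CoA through mevalonate and isoprenoids to squalene, which is closed to lanosterol and trimmed to cholesterol. When membrane cholesterol is low, the escort protein SCAP carries SREBP transcription factors to the Golgi for activation, and they raise the transcription of nearly every enzyme of the route, while INSIG proteins hold SCAP back. When oxysterols are plentiful, liver X receptors raise the efflux pumps ABCA1 and ABCG1. Several late steps need molecular oxygen, and the enzymes encoded by Cyp51, Msmo1 and Sc5d hold iron as haem or as non-haem iron. In the embryo the route also supplies the cholesterol that is attached to Hedgehog proteins.

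The promoters of Hmgcs1, Insig1 and Abca1 are shown because these genes belong to the few whose pools separated by diet, and because SREBP, its partner NF-Y and hypoxia-inducible factors are known to bind short motifs near gene starts. Each line gives the 250 bases before the RefSeq gene start, 5′ to 3′ on the gene's strand, in build GRCm38.p6: chr13:119690101-119690350 on the plus strand for Hmgcs1, chr5:28071162-28071411 on the plus strand for Insig1 and chr4:53159896-53160145 on the minus strand for Abca1. Capitals mark, on either strand, the sterol-element pattern TCACNCCAC, the NF-Y box CCAAT and the hypoxia-element core ACGTG. The palindrome CACGTG holds ACGTG on both strands.
Hmgcs1: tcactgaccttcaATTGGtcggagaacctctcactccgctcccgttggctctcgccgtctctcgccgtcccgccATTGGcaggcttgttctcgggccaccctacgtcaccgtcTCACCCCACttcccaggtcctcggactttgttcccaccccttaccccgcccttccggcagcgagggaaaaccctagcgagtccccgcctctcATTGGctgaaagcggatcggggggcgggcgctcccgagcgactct
Insig1: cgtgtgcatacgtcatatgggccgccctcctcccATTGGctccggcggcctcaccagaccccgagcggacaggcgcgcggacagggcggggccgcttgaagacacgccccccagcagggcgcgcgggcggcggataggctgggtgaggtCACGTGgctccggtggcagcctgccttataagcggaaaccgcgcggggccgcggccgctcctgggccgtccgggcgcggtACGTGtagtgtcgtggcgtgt
Abca1: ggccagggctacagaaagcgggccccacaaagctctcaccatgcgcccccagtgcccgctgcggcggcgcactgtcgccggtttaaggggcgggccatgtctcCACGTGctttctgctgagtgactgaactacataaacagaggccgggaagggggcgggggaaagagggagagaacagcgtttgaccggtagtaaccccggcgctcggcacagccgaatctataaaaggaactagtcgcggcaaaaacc

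Of the 26 measured genes, 21 had a promoter in the table. The NF-Y box CCAAT, searched on both strands, was present in 19 of these 21, or 90.5%, where 40.2% of the 10481 tested genes with a promoter held it. Only the Abca1 and Scap windows lacked it. The pattern TCACNCCAC was found in 1 of 21, that of Hmgcs1, against 1.19% of tested genes, and a longer form of it, of 10 bases, in none of them, against 0.0572% of tested genes. The core ACGTG was found in 6 of 21, or 28.6%, against 24.6% of tested genes: Abca1, Dhcr7, Hsd17b7, Insig1, Sc5d and Scap. The shared CCAAT box is a property of the sequence and makes no use of the array values. A match is a description of the letters and not evidence of binding in these kidneys.

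The comparison of diets asked how transcripts of the route responded in the embryonic kidney to a maternal diet low in iron. Most of the measured differences between diets were small, but their precision was low. No gene passed over all 27022 tested probe sets by limma (adjusted p from 0.852 to 0.998), as 0% of all tested probe sets did. The 2 sterol efflux pumps, Abca1 and Abcg1, had signals under those of both control pools in each iron-deficient pool, and Hmgcs1, Insig1 and Fdft1 had signals above them. The differences of the 26 genes ran from -0.92 to 0.61 on the log2 scale, and 19 of them were smaller than 0.5 in size. The limma confidence intervals of the 26 genes reached from -1.84 for Scap to 1.68 for Insig1, and several took in a 2-fold fall. A small measured difference therefore does not show that a transcript was unchanged.

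Of the 26 genes, 3 lay above and 5 lay below both control pools in both iron-deficient pools, where 11.8% and 25.0% of all tested probe sets did. Together these 8 make 30.8% of the genes, against 36.7% of all tested probe sets. At an unadjusted limma p under 0.05, 1 gene was lower and none was higher, against 2.81% and 1.14% of all tested probe sets. The median log2 difference was -0.23 over the 26 genes and -0.10 over all tested probe sets. These shares are near those of the array as a whole, and the plot of cumulative shares shows the sterol genes spread more narrowly around a similar centre. The 2 curves are unlike in make-up. Each sterol gene is shown by its brightest probe set, with signals of 126.2 or more, while all tested probe sets go down to a mean of 17.3. The part of this in the narrower spread was not tested.

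**Figure D1:**
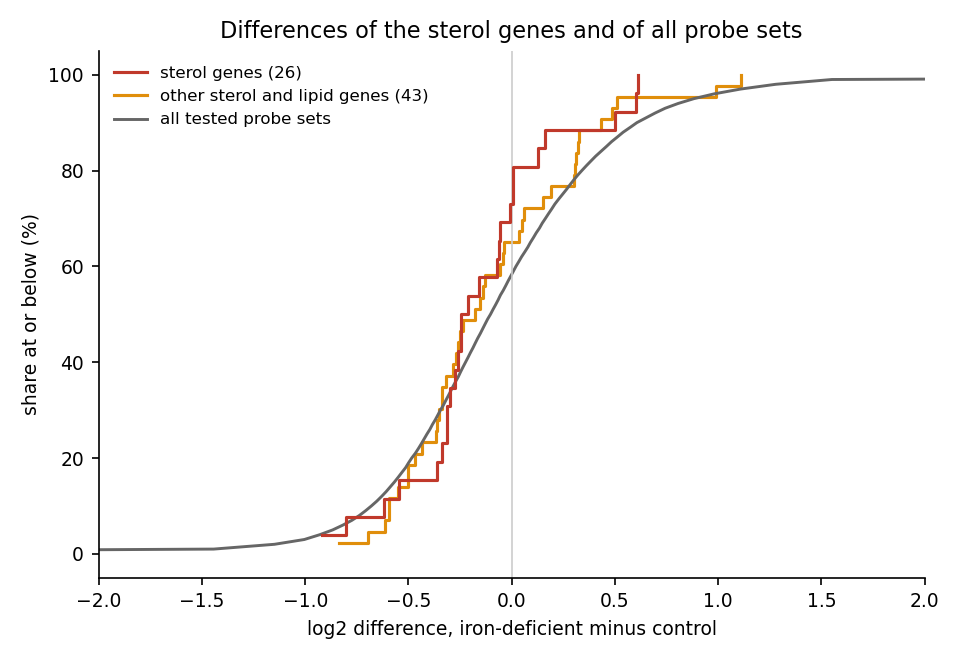
Share of genes or probe sets (y axis, percent) at or below each log2 difference between iron-deficient and control pools (x axis), for the 26 sterol genes, the 43 tested genes of a wider sterol and lipid list, and all 27022 tested probe sets. The sterol genes end at 0.61 on the right and start at -0.92 on the left, with a median of -0.23 against -0.10 for all tested probe sets; the x axis stops at 2 on either side.

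The 2 iron-deficient pools did not behave alike. In iron-deficient pool 1, 19 of 26 genes lay below both control pools and 4 above both, where 52.6% and 34.9% of all tested probe sets did. In iron-deficient pool 2, 5 lay below and 9 above both, against 40.5% and 31.3% of all tested probe sets. Relative to the control mean, the median gene stood at -0.45 in pool 1 and 0.024 in pool 2 on the log2 scale. The corresponding medians over all tested probe sets were -0.18 and -0.035. The gap between the pools of a diet had a median of 0.53 for the iron-deficient diet and 0.15 for the control diet, and for 21 of 26 genes the difference between diets was smaller than that iron-deficient gap. By construction, these medians per pool are also the median differences with the other pool left out, 0.024 without iron-deficient pool 1 and -0.45 without pool 2.

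Iron-deficient pool 1 also stood apart as an array. Its log2 signals correlated with those of the other arrays across tested probe sets at 0.883 to 0.913, where the control pools reached 0.978, and probe sets are not independent replicates. Its 18S control probe set at the 5′ end read 2144.5, against 243 in iron-deficient pool 2 and 291.9 and 289.4 in the control pools. The part that this array plays in the values of the sterol genes was not tested beyond leaving it out. The kidney identity genes Wt1 and Foxd1 were present in all pools, at 1649 and 1631 for Wt1 in iron-deficient pools against 1302 and 1324 in control pools, and at 964 and 938 for Foxd1 against 696 and 623. Other transcripts moved far more than the route did. The summed signal of 5 proximal tubule markers was 223 and 659 in iron-deficient pools against 2961 and 2716 in control pools, with 5 of 5 lower in both. That of 8 hypoxia response genes was 18824 and 17658 against 6624 and 7134, with 7 of 8 higher in both. Summed erythroid markers (9532 and 6610.5 against 2926 and 3251; 6 of 7 higher in both and 1 lower) and granulocyte markers (1513 and 846 against 182 and 197; 5 of 5 tested higher in both) were also higher. The summed signal of 7 liver markers was 227 and 2598 against 1435 and 1286, so that it differed widely between the iron-deficient pools. Of the 5 tested liver markers, 0 were higher and 0 lower in both. In RNA from whole kidneys, fewer cells of a type and less RNA per cell cannot be told apart, and the part of these shifts in the sterol values was not tested.

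**Figure D2:**
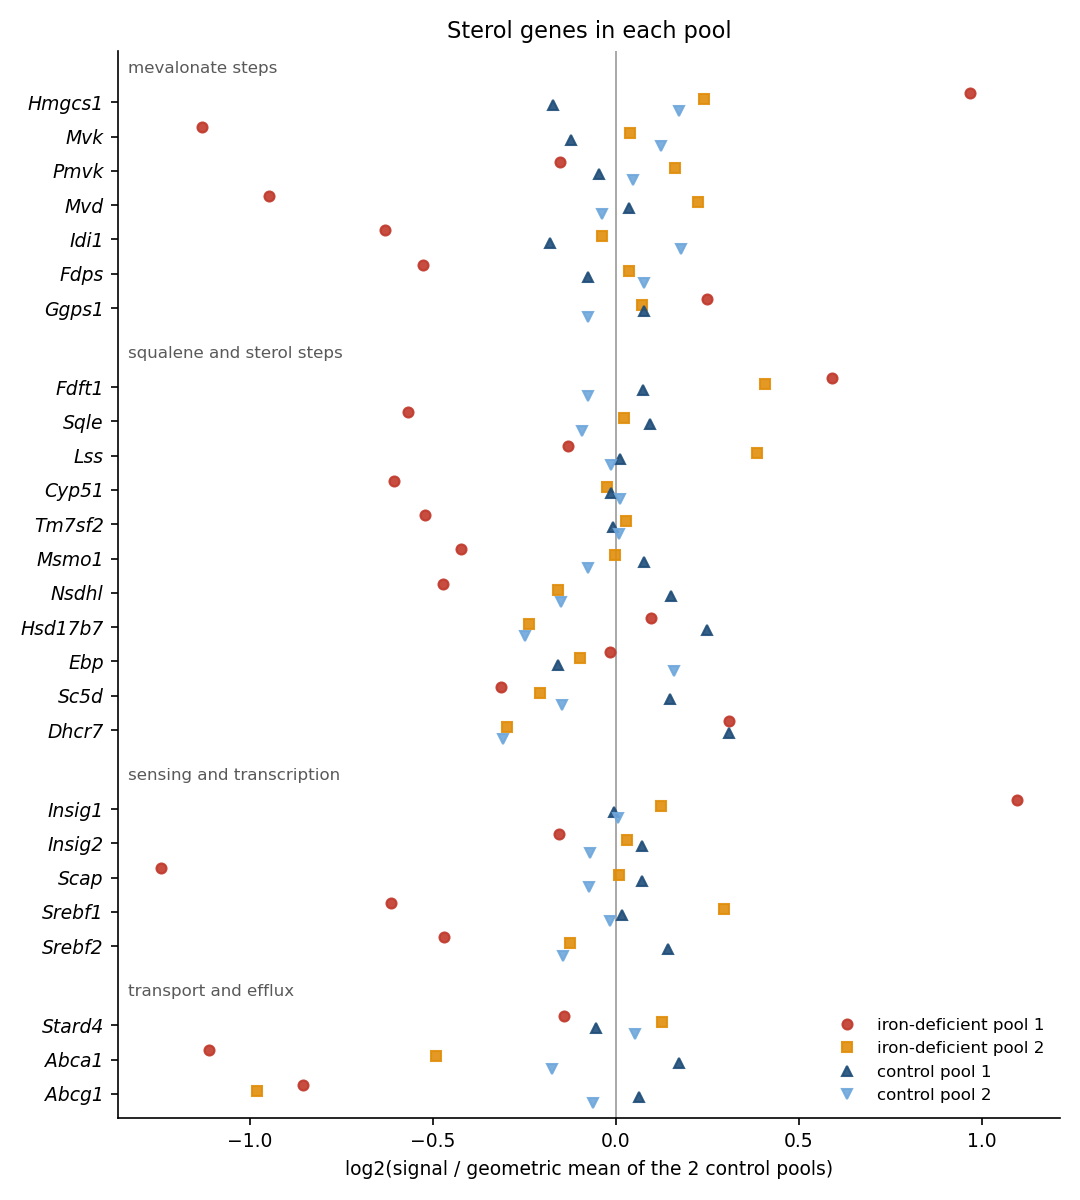
Signal of each of the 26 sterol genes (rows, by role) in each pool, as the log2 ratio to the geometric mean of the 2 control pools (x axis). Circles and squares are iron-deficient pools 1 and 2, triangles up and down are control pools 1 and 2. Iron-deficient pool 1 lies left of both control pools for 19 genes, while Abcg1 is the row where both iron-deficient pools lie farthest left together.

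Among the 7 measured genes of the early, mevalonate steps, Hmgcs1 alone had separated pools, where 36.7% of all tested probe sets did. It encodes the cytosolic synthase that makes HMG-CoA and is a classical SREBP target. Its signals were 5965 and 3600.4 in iron-deficient pools and 2705 and 3437 in control pools. The value of iron-deficient pool 1 was far above the others, while that of pool 2 exceeded control pool 2 only slightly. The log2 difference was 0.60 ± 0.39 (SE, n = 2 pools per diet; 95% interval -0.38 to 1.59; limma adjusted p = 0.852). It was 0.24 with iron-deficient pool 1 left out and 0.97 with pool 2 left out, and after quantile normalization it was 0.22 and the pools overlapped. All 4 other Hmgcs1 probe sets also had positive differences, from 0.24 to 0.43, and 2 of them had separated pools.

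The other 6 measured mevalonate genes had overlapping pools on their brightest probe sets. Mvk, mevalonate kinase, read 183 and 412 in iron-deficient pools against 368 and 436 in control pools (log2 difference -0.55 ± 0.47, SE). Mvd, the decarboxylase that ends the mevalonate segment, read 216 and 486 against 426 and 405 (-0.36 ± 0.47). On these probe sets of both genes, iron-deficient pool 1 lay below both control pools, and pool 2 lay within or above them. A second Mvd probe set had both iron-deficient pools lower, at 127 and 142 against 166 and 187 in control pools (-0.39 ± 0.32). A second Mvk probe set, with overlapping pools, differed by -0.68 ± 0.47. Idi1, the isomerase that balances the isoprenoid units, differed by -0.34 ± 0.37, and Fdps, which joins them to farnesyl diphosphate, by -0.24 ± 0.35. Pmvk, phosphomevalonate kinase, differed by 0.0047 ± 0.32 (95% interval -0.81 to 0.81), and Ggps1, which makes the geranylgeranyl donor for protein prenylation, by 0.16 ± 0.32. The other 3 Ggps1 probe sets differed by -0.29, -0.25 and 0.012. The intervals of these 6 genes reached from -1.73 for Mvk to 0.95 for Ggps1. With lower ends from -1.73 to -1.13, those of Mvk, Mvd, Idi1 and Fdps took in a 2-fold fall. None of the 6 took in a 2-fold rise.

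**Figure D3:**
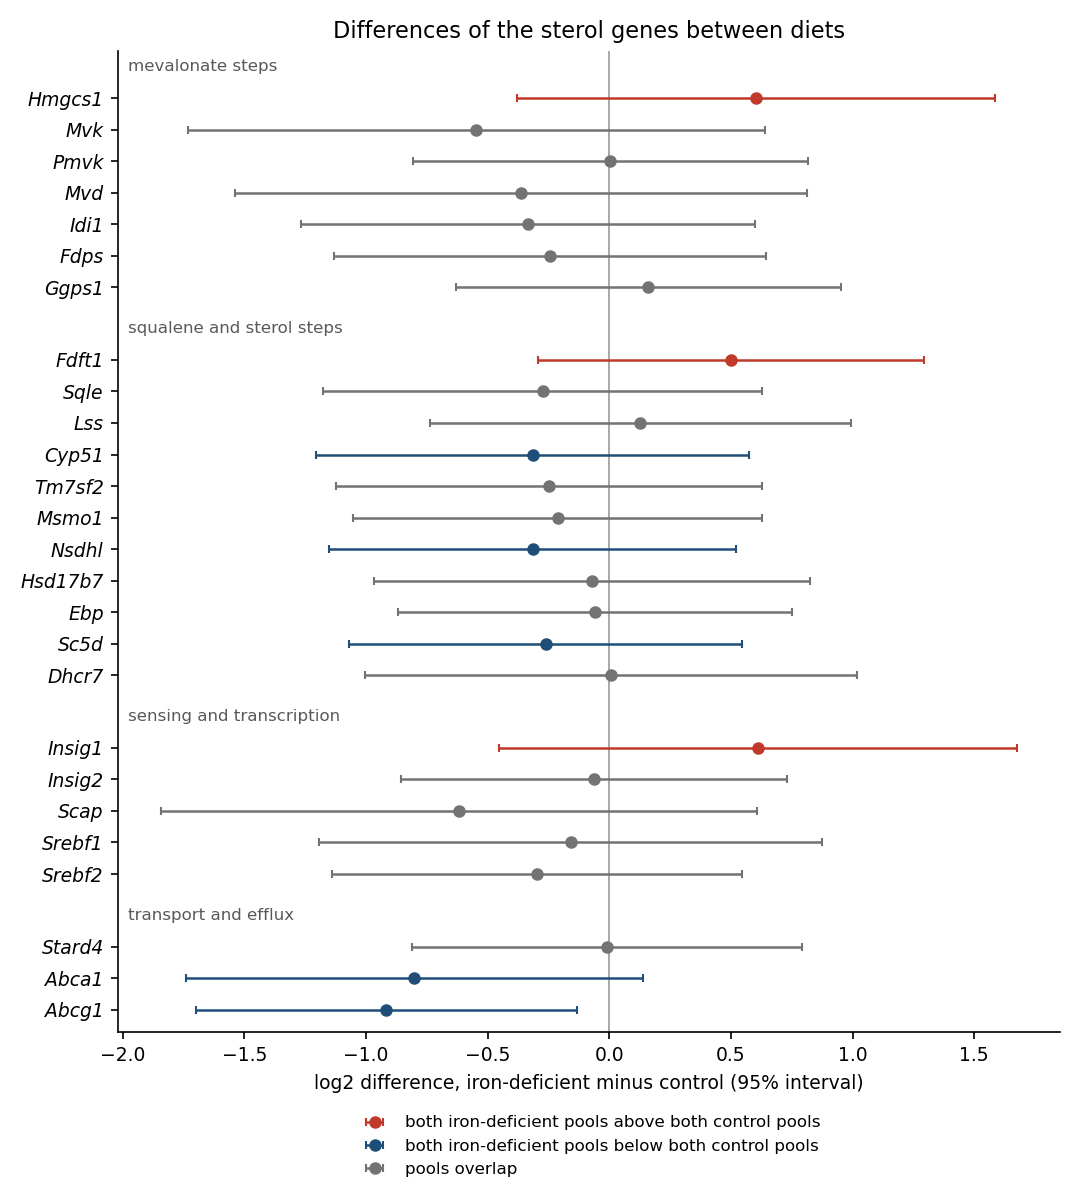
Log2 difference between iron-deficient and control pools (x axis) with its 95% interval from limma for each of the 26 sterol genes (rows, by role). Red marks genes whose iron-deficient pools both lie above both control pools, blue those with both below, grey those with overlapping pools; only the interval of Abcg1, from -1.70 to -0.13, leaves out 0.

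Of the 11 squalene and sterol genes, 1 lay above and 3 lay below both control pools in both iron-deficient pools, with a median log2 difference of -0.21. These counts are near the shares of all tested probe sets, 11.8% above and 25.0% below. Fdft1, squalene synthase, which commits isoprenoids to sterols, read 1690 and 1488 in iron-deficient pools against 1181 and 1064 in control pools. Both iron-deficient signals were clear of both control signals, and the log2 difference was 0.50 ± 0.32 (SE; limma adjusted p = 0.852). A second bright probe set read 713 and 829 against 875 and 718, with overlapping pools and a difference of -0.044 ± 0.33. The 2 probe sets of Fdft1 therefore disagree, and the brighter one carries the suffix x_at, which marks a design that can hybridise to other transcripts.

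The oxygen-using enzymes all had small negative differences. In all, 19 of the 26 genes and 15772 of the 27022 tested probe sets had negative differences. Sqle, squalene epoxidase, which uses oxygen with a flavin, read 465 and 700.3 in iron-deficient pools against 736 and 646 in control pools (-0.27 ± 0.36, SE). Cyp51, the haem enzyme that demethylates lanosterol, read 808 and 1210.4 against 1219.8 and 1241 (-0.32 ± 0.35). Iron-deficient pool 2 lay just under the control pools for Cyp51, and its value relative to the control mean was -0.023. Msmo1, the non-haem iron methylsterol oxidase, read 804 and 1076 against 1136 and 1023 (-0.21 ± 0.34), with overlapping pools. Sc5d, the non-haem iron sterol desaturase, read 260.3 and 280.1 against 359 and 292 (-0.26 ± 0.32), with both iron-deficient pools below both control pools. Unadjusted limma p-values of these 4 genes were 0.412 or more. The other probe sets did not share this direction throughout: 2 further Cyp51 probe sets differed by 0.19 and 0.22, and a dimmer Msmo1 probe set, at 189 and 74.1 against 86.1 and 30.3, differed by 1.21 ± 0.68. A second tested Sc5d probe set differed by -0.079 ± 0.31. With all probe sets of a gene averaged, the differences of Cyp51 and Msmo1 were 0.031 and 0.50.

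Cytochrome b5 passes electrons to several of these enzymes. Cyb5a, its form in the endoplasmic reticulum, read 1360.0 and 2089 in iron-deficient pools against 1986 and 2227 in control pools (-0.32 ± 0.36, SE). Cyb5b, the form in the outer mitochondrial membrane, read 1373 and 1525 against 2126 and 1881 (-0.47 ± 0.32), with both iron-deficient pools lower. A dimmer Cyb5b probe set with 188 and 301 against 498 and 447 differed by -0.99 ± 0.37 (limma unadjusted p = 0.0418, adjusted p = 0.852), and the remaining one, with overlapping pools, by -0.13 ± 0.34. These 2 genes were picked from the wider list after their values were seen.

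The remaining steps after squalene showed no shared direction. Lss, the cyclase that forms lanosterol, differed by 0.13 ± 0.35 (SE), and Tm7sf2, a sterol reductase, by -0.25 ± 0.35. Nsdhl, a sterol dehydrogenase, read 340.1 and 423 in iron-deficient pools against 524 and 425 in control pools (-0.32 ± 0.33), so that pool 2 was below control pool 2 by a narrow margin. Ebp, the sterol isomerase, read 519 and 490.1 against 470.2 and 586 (-0.058 ± 0.32). Nsdhl and Ebp are X-linked, and sex-linked signals differed between the pools: Eif2s3y, which is Y-linked, read 254 and 20.8 in iron-deficient pools against 594 and 600 in control pools, and Xist read 3427 and 1543 against 927 and 168, although the labels give every sample as female. Both signals were separated by diet, so a difference in sex make-up cannot be told apart from diet for any gene described here. Its part in the values of these 2 genes and of the others was not tested. Hsd17b7, a sterol ketoreductase, differed by -0.071 ± 0.36. Dhcr7, the reductase that completes cholesterol, read 1286 and 845 in iron-deficient pools against 1286 and 837 in control pools (0.0064 ± 0.40). The pools of each diet spread alike for Dhcr7, with a gap of 0.61 between iron-deficient and 0.62 between control pools on the log2 scale.

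Of 5 sensing and transcription genes, Insig1 alone had separated pools, where 36.7% of all tested probe sets did. INSIG1 retains SCAP in the endoplasmic reticulum, and its gene is itself raised by SREBP. Its signals were 4598 and 2344 in iron-deficient pools against 2142 and 2158 in control pools on its single probe set. The control pools were nearly equal, iron-deficient pool 2 was slightly above them, and pool 1 was far above them. The log2 difference was 0.61 ± 0.43 (SE; 95% interval -0.45 to 1.68; limma adjusted p = 0.852), and it was 0.12 with iron-deficient pool 1 left out and 1.10 with pool 2 left out. After quantile normalization it was 0.34 and the pools overlapped.

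Insig2, the related retention protein, read 212 and 241 in iron-deficient pools against 248 and 224 in control pools (-0.063 ± 0.32, SE). Its second probe set had both iron-deficient pools lower, at 167 and 178 against 247 and 220.3 (-0.44 ± 0.31), and the remaining one, with overlapping pools, differed by -0.13 ± 0.37. Scap, the escort of SREBP, read 214 and 510 against 532 and 481 (-0.62 ± 0.49). The Scap difference came from iron-deficient pool 1, since pool 2 differed from the control mean by 0.0096. Srebf2, which encodes the SREBP form most tied to sterol synthesis, read 665 and 844 against 1018 and 834 (-0.30 ± 0.34), and its second probe set differed by -0.0050 ± 0.37. Srebf1, whose products act mainly on fatty acid synthesis, read 195 and 367 against 302 and 295 (-0.16 ± 0.41), with pool 1 below and pool 2 above both control pools.

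**Figure D4:**
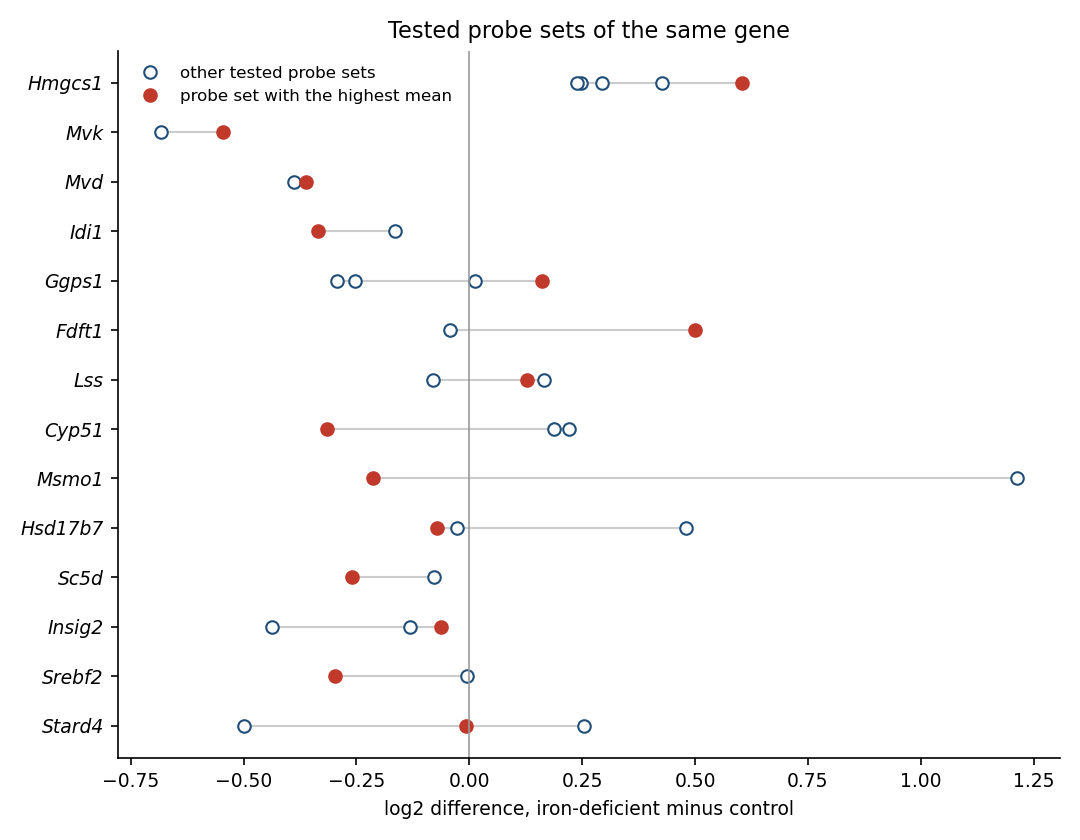
Log2 difference between iron-deficient and control pools (x axis) of every tested probe set for the 14 sterol genes that have more than 1 (rows). Filled points are the probe sets with the highest mean signal, open points the others; for 7 genes at least 1 open point lies on the other side of 0 from the filled one, while all 5 Hmgcs1 probe sets lie right of 0.

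The transport genes held the largest negative differences of the route. Abcg1, which exports sterol to lipoprotein particles, read 159 and 146 in iron-deficient pools against 300.1 and 275 in control pools. The pools of each diet were close to each other and the 2 diets were well apart. The log2 difference was -0.92 ± 0.31 (SE, n = 2 pools per diet; 95% interval -1.70 to -0.13), with a limma unadjusted p of 0.0291 and an adjusted p of 0.852. It was -0.98 with iron-deficient pool 1 left out and -0.85 with pool 2 left out, and -0.72 both after quantile normalization and after median centring, with separated pools in each. The unadjusted limma p was above 0.05 after quantile normalization (0.0516), median centring (0.0626), with no filter on dim probe sets (0.0575), with the pool number as a block (0.0511) and with either control pool left out (0.306 without pool 1 and 0.241 without pool 2). A second Abcg1 probe set read 5.9 and 5.1 against 10.5 and 12.5 and was too dim to be tested.

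Abca1, which loads cholesterol onto apolipoprotein A-I, read 126.2 and 194 in iron-deficient pools against 308 and 242 in control pools. Both iron-deficient pools were below both control pools, pool 1 farther than pool 2. The log2 difference was -0.80 ± 0.38 (SE; 95% interval -1.74 to 0.14; limma unadjusted p = 0.0806, adjusted p = 0.852). It was -0.49 with iron-deficient pool 1 left out and -1.11 with pool 2 left out, and -0.63 after quantile normalization. With all Abca1 probe sets averaged it was -0.18 and the pools overlapped. The 2 dimmer Abca1 probe sets, none above 14.7 in any pool, were too dim to be tested and went opposite ways. Stard4, a soluble carrier that moves cholesterol between membranes, read 670 and 806 against 712 and 767 (-0.0084 ± 0.32), and its other probe sets differed by 0.25 ± 0.66 and -0.50 ± 0.42.

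Macrophages and steroid-producing cells are known for these transporters, so their markers are given beside them. The summed signal of 5 macrophage markers was 1176.5 and 1740.2 in iron-deficient pools against 1590 and 1872 in control pools, and 2 of 5, Adgre1 and C1qa, were lower in both iron-deficient pools, at -0.78 and -0.84 on the log2 scale. The summed signal of 8 adrenal cortex markers was 449 and 631 against 616 and 662, with 1 of 5 tested markers, Star, lower in both iron-deficient pools. Of all tested probe sets, 25.0% were lower in both. Most of the adrenal sum was Fdx1, at 242 and 482 against 419 and 499. Cyp11b1 and Hsd3b1, higher in both iron-deficient pools, and Nr5a1 were too dim to be tested. No marker of either list was at 0, but adrenal signals went down to 3.1. The part of these cells, and of the lower proximal tubule signal, in the values of Abca1 and Abcg1 was not tested.

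Beyond these genes, 46 of 55 other genes of sterol handling and SREBP-driven lipid synthesis had a probe set, and 43 were bright enough to be tested. Of these, 7 lay above and 11 below both control pools in both iron-deficient pools, together 41.9%, against 36.7% of all tested probe sets, and the median log2 difference was -0.18. At an unadjusted limma p under 0.05, 1 was higher, none was lower and none passed after adjustment. The gene was Lrp8, a lipoprotein receptor that binds apolipoprotein E, with 108 and 86.1 in iron-deficient pools against 50.3 and 47 in control pools (0.99 ± 0.32, SE; limma unadjusted p = 0.0255, adjusted p = 0.852). A second tested Lrp8 probe set, with 91.3 and 46 against 54.9 and 45.9, differed by 0.37 ± 0.44. The remaining Lrp8 probe set, too dim to be tested, went the other way, with 6 and 6.6 in iron-deficient pools against 10.1 and 10.2 in control pools (log2 difference -0.69). With all Lrp8 probe sets averaged, the difference was 0.22 (limma unadjusted p = 0.530), and the unadjusted p of the brightest one was 0.0518 with no filter and 0.215 and 0.261 with control pool 1 or 2 left out. The 11 fatty acid synthesis genes included none above and 3 below both control pools, against 11.8% and 25.0% of all tested probe sets, with a median of -0.18.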

How the data were processed

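RNA from 4 pools, 2 per diet, was biotin-labelled and hybridised to Affymetrix arrays, per the labels' protocols. The authors deposited 1 linear intensity per probe set and array, scaled to a mean of 250.0 per array once the outer 2% on either side are trimmed. RMA is named in the submitters' processing notes, but the deposited intensities are neither logarithmic nor of 1 shared distribution. No source used here names other software.

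Zeros were set to 0.1 before log2. Of 45101 probe sets, 64 controls and the lowest 40% of the others by mean log2 signal (under 17.3) were left out, so that 27022 were tested. Differences, iron-deficient minus control, were fitted in R 4.3.3 with limma 3.58.1 (lmFit, eBayes, two-sided, diet as the only term, Benjamini-Hochberg adjustment). It rests on 2 residual and 3.49 prior degrees of freedom, and it was tested on simulated data. With 2 pools against 2, an exact permutation test cannot go below p = 0.333. The number of arrays limits the precision. Of the non-control probe sets, 34945 have 1 gene symbol, 932 several and 9160 none; symbols follow the platform annotation, and 0 changed through RefSeq.

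All 26 measured genes are named. Genes of the wider list are named if their pools separate and unadjusted p is under 0.05, and Cyb5a, Cyb5b, Vldlr, Scarb1, Mylip and Apoe were added after their values were seen. Members and lists were chosen with earlier results of these data known. Promoters are RefSeq's, from GRCm38.p6. Alternatives changed the filter, scaling, offset, moderation, array weights, replicate block, pools, threshold or probe set.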

Additional observations from a re-analysis of the deposited data

How the results depend on the processing

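No named gene passed an adjusted p of 0.05 by limma under any alternative (smallest adjusted p = 0.0771). Of 33 named genes, 15 kept the sign of their difference under all of them, among them Hmgcs1, Fdft1, Insig1, Abca1, Abcg1, Lrp8, Idi1, Nsdhl, Sc5d and Srebf2. The lowest and highest of these differences were -0.99 and -0.72 for Abcg1, -1.11 and -0.18 for Abca1, 0.12 and 1.10 for Insig1, 0.22 and 0.97 for Hmgcs1, and 0.22 and 1.18 for Lrp8. The -0.18 of Abca1 and the 0.22 of Lrp8 came from averaging all probe sets of the gene, including those too dim to be tested.

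The small differences and the counts of separated pools depended on the scaling. No share of all tested probe sets under these scalings stands beside the counts, so they only describe the change from the main scaling. After quantile normalization, 4 of 26 genes lay above and 3 below both control pools, the median was -0.082, 0 were lower at an unadjusted p under 0.05, and 4 of the wider list lay above. Hsd17b7 (0.11), Ebp (0.083), Insig2 (0.13), Srebf1 (0.023), Stard4 (0.082) and Dhcr7 (-0.030) turned sign. After median centring, 8 genes lay above and 2 below, the median was -0.033, 0 were lower at that p, and 7 of the wider list lay below, while Hsd17b7 (0.13), Ebp (0.14), Insig2 (0.13), Srebf1 (0.038) and Stard4 (0.19) turned. The cause was not tested. Averaging a gene's probe sets turned Ggps1 (-0.093), Cyp51 (0.031), Msmo1 (0.50) and Hsd17b7 (0.70). Such averages take in probe sets too dim to be tested. That of Hsd17b7 includes a dim probe set with a log2 difference of 2.41, at 9.7 and 7.9 in iron-deficient pools against 1.8 and 1.5 in control pools. Without a filter 0 genes were lower at that p.

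Leaving out each pool in turn gave 0 to 42 probe sets called higher and 0 to 33 lower over the array. With iron-deficient pool 2 left out, 19 of the 26 genes lay below and 4 above both control pools, against 52.6% and 34.9% of all tested probe sets. With iron-deficient pool 1 left out, 5 lay below and 9 above, against 40.5% and 31.3%. With 2 pools per diet, each of these sets the remaining iron-deficient pool alone against the controls. These counts therefore repeat the counts per pool given above and are not a further check. Of the 43 tested genes of the wider list, 28 lay below and 12 above without pool 2, and 14 and 18 without pool 1. Leaving out any pool, the median of the 26 genes ran from -0.45 to 0.024. With 1 pool left, its spread is assumed to be that of the other diet. With 1 pool left out, the difference crossed 0 for some genes, ranging from -1.13 to 0.038 for Mvk, -0.15 to 0.16 for Pmvk, -0.95 to 0.22 for Mvd, -0.53 to 0.037 for Fdps, -0.57 to 0.022 for Sqle and -0.13 to 0.39 for Lss. It ranged from -0.52 to 0.027 for Tm7sf2, -0.32 to 0.18 for Hsd17b7, -0.22 to 0.10 for Ebp, -0.30 to 0.32 for Dhcr7 and -0.16 to 0.030 for Insig2, and from -1.24 to 0.0096 for Scap, -0.61 to 0.30 for Srebf1, -0.14 to 0.13 for Stard4 and -1.91 to 0.24 for Apoe.

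With 1 probe set per gene in the fit, 1 gene was called higher and 12 lower, none of them named here. The pool number as a replicate block called 261 probe sets higher and 218 lower, none of a named gene, and 0 of the 26 genes were lower at an unadjusted p under 0.05. The difference between pools 1 and 2 correlated at 0.36 between diets across tested probe sets, and the labels do not say that the numbers pair the pools. With 2 arrays per diet, standard errors of 0.31 to 0.49 limit what could be seen.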

Other observations

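Vldlr and Scarb1 encode lipoprotein receptors of the wider list and were picked after their values were seen. Vldlr, which takes up triglyceride-rich particles, read 1544 and 2094 in iron-deficient pools against 1345 and 1183 in control pools (log2 difference 0.51 ± 0.34, SE). Both iron-deficient pools were above both control pools, and this held for 5 of 6 Vldlr probe sets, with differences from 0.45 to 1.15, while the sixth differed by 0.13 with overlapping pools. Scarb1, the receptor for high-density lipoprotein, read 1653 and 495 against 440.5 and 399 (1.11 ± 0.61). Its other probe sets read 1405 and 428 against 375 and 334 (1.13 ± 0.60), and 580.1 and 566 against 534 and 546 (0.085 ± 0.31). The Scarb1 probe sets at 1.11 and 1.13 both carry the suffix x_at, as does the brighter Fdft1 probe set, and the one at 0.085 does not. The brightest Vldlr probe set carries this suffix too. Scarb1 differed by 0.24 without iron-deficient pool 1. None passed the limma test over all probe sets (adjusted p = 0.852 for the brightest probe set of each gene, and no lower for the others).

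Among other known targets of liver X receptors, Mylip, which encodes a ligase that removes lipoprotein receptors, read 62.5 and 60.6 in iron-deficient pools against 110 and 74.3 in control pools (-0.55 ± 0.35, SE). Both iron-deficient pools were lower, as for Abca1 and Abcg1 and for 25.0% of all tested probe sets. Apoe, a sterol carrier apolipoprotein, read 120 and 530 against 396 and 510.2 (-0.83 ± 0.72), with overlapping pools. The summed liver markers, at 227 and 2598 against 1435 and 1286, were also lowest in iron-deficient pool 1. The part of liver transcripts in the Apoe values was not tested. Mylip and Apoe were also picked after their values were seen, and no test of them as a group was made. They are not a full list of the targets of these receptors, and whether such targets fell together was not tested.

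A dim Hsd17b7 probe set read 9.7 and 7.9 in iron-deficient pools against 1.8 and 1.5 in control pools. It was below the limit for testing.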
